A study of Mus musculus with 7 samples.

Results

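Ncam1, Ncam2, Cadm1, Cadm2, Cadm3 and Cntn1 code for neuronal cell adhesion molecules of the immunoglobulin superfamily, and their splicing, their RNA and their H3K9me3 were followed in 2 mouse experiments. Rows were found by gene symbol. The 6 genes, of 9056 in the splicing tables, held 15 of 19447 rows in the table of replicate 1 and 18 of 22703 rows in that of replicate 2. Of 11814 events that could be matched between both tables by type and coordinates, 9 belonged to them. Ncam1, Cadm1, Cadm2 and Cadm3 had rows in both tables, Ncam2 had rows in replicate 2 and Cntn1 in replicate 1.

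Neural cell adhesion molecule 1, from Ncam1, binds its own kind on neighbouring cells, and polysialic acid added to it weakens that binding. Ncam2 is its paralogue, prominent on olfactory axons. The CADM proteins, also called SynCAMs or nectin-like molecules, bind one another across the synaptic cleft and hold scaffolds such as CASK at their short cytoplasmic tails. Contactin 1, from Cntn1, is anchored to the membrane by a lipid and acts together with other adhesion molecules on axons and glia. Alternative exons in this family change the extracellular stalk, the immunoglobulin domains or the cytoplasmic tail, so that 1 gene gives several adhesive forms.

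RNA came from wild-type ICR cortical neurons of embryonic day 16, grown to day 11 in culture. KCl cultures were exposed for 10 min to 50 mM KCl, which depolarizes neurons, control cultures for the same time to a buffer with NaCl in its place, and both were harvested 24 h later, with 2 libraries each. H3K9me3, a histone mark of silenced chromatin, was measured in hippocampus of wild-type C57BL/6 mice aged 3 months: 2 libraries from mice given 24 h in an enriched cage and then 1 week in the home cage, and 1 library from home-cage mice. The RNA libraries held 3566066 to 5385345 reads on splicing events, and the ChIP libraries 6187162 to 13008562 fragments. The labels do not say whether replicates were separate cultures or animals, or whether animals were pooled, so a p-value here covers no more than the spread among these libraries. Of 10 neuronal marker genes 6 had matched events, each with reads in all 4 RNA libraries. The same held for 7 of 10 astrocyte and 6 of 12 oligodendrocyte lineage markers. A matched event has to be listed for both replicate numbers, so reads in every library are close to given. The share of each cell type in the cultures was not tested. Marker levels differed between control and KCl and are given below. Intervals are exact, at 95%, and cover counting error only.

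The clearest contrast in the family was a choice of exon in Cadm1. A mutually exclusive pair on chromosome 9 (mm10) consists of an 84-base exon at 47818734 to 47818817 and a 33-base exon at 47829377 to 47829409. The reads counted as inclusion of the pair equalled the inclusion reads of an 84-base cassette row, and its skipping reads equalled the inclusion reads of a 33-base cassette row, in all 4 libraries. The inclusion form is therefore the one with the 84-base exon. Its share of the reads of the pair was 37.2% (interval 31.7% to 43.0%) in control replicate 1 and 47.9% (42.7% to 53.1%) in control replicate 2. In KCl it was 82.3% (75.6% to 87.8%) in replicate 1 and 80.1% (75.3% to 84.3%) in replicate 2. Both KCl libraries lay above both controls, with means of 42.5% ± 7.55 (SD, n = 2) in control and 81.2% ± 1.59 (SD, n = 2) in KCl.

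The log2 odds of the 84-base exon were higher by 2.54 (SE 0.63) in KCl. In edgeR's quasi-likelihood test the unadjusted p was 0.000716, and with Benjamini-Hochberg adjustment over 10088 events it was 0.143, so the pair did not pass. It ranked 50 by p among all events tested, and the smallest adjusted p of any event was 0.0972. Within a replicate number, the authors' deposited table gives this event an FDR of 4.7e-14 for replicate 1 and 2.01e-11 for replicate 2. By that measure 3 of 15 member rows were under 0.05 in replicate 1, against 2.26% of all rows, and 4 of 18 in replicate 2, against 0.828%. Apart from the 801-base exon of Ncam1 in replicate 2, these were rows of the Cadm1 pair and its 84-base exon. Those Cadm1 rows have equal or nearly equal inclusion reads, so they are not separate results. Each FDR compares 1 KCl library with 1 control library and covers no spread between libraries of a group. The pair is 1 of 122 matched events with an FDR under 0.05 in both of the authors' deposited tables, and no other matched event of the 6 genes is among them.

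Another form of Cadm1 leaves out both exons, and the rows that share its reads give the split between these 3 forms. With the 84-base exon there were 109 reads in control replicate 1, 180 in control replicate 2, 135 in KCl replicate 1 and 257 in KCl replicate 2. With the 33-base exon the reads came to 184 and 196 in control and to 29 and 64 in KCl. With neither exon they came to 107 and 92 in control and to 7 and 20 in KCl. Of these 3, the 33-base form thus had the most reads in control and the 84-base form in KCl. The 84-base form held 32.9% ± 7.93 (SD, n = 2) of the 3 forms in control and 77.2% ± 2.53 (SD, n = 2) in KCl. The 33-base form stood at 43.9% ± 2.91 (SD, n = 2) and 17.9% ± 1.28 (SD, n = 2), and the form with neither at 23.2% ± 5.01 (SD, n = 2) and 4.98% ± 1.25 (SD, n = 2). In every form the KCl libraries lay apart from the controls, but shares of a common total are not 3 separate results. Effective lengths of the forms are not known, so these are shares of reads and not of molecules. These rows were identified by their reads in a fit added after the data were seen. There the 84-base exon was also higher against the form with neither exon, with a log2 odds difference of 3.41 (SE 0.69; Benjamini-Hochberg adjusted p 0.0879, edgeR quasi-likelihood). For the 33-base exon against neither, the value was 0.88 (SE 0.66; edgeR adjusted p 0.794). Each of these exons has a second row whose flanking exons are not known. In it the 84-base exon had shares of 42.2% and 52.0% in control and of 87.3% and 84.3% in KCl, a log2 odds difference of 2.75 (SE 0.64; edgeR p 0.000362, adjusted 0.108). The authors' deposited table gives that row an FDR of 1.41e-13 in replicate 1 and of 4.86e-11 in replicate 2, and gives the row against neither exon 0 and 1.81e-08. In its second row the 33-base exon stood at 90.7% and 85.7% in control and at 50.0% and 48.9% in KCl, on 22 and 47 KCl reads, a log2 odds difference of -2.92 (SE 0.88; edgeR p 0.0035, adjusted 0.230). The rows of the 33-base exon thus point in opposite directions, and neither passed.

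**Figure D1:**
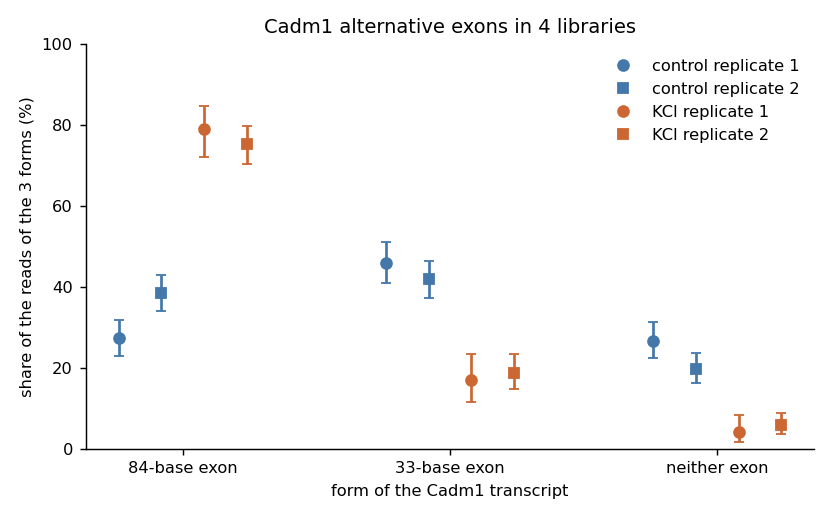
Share of the reads of 3 Cadm1 forms (y axis, %) by form (x axis). Each point is 1 library, coloured by group and shaped by replicate, and bars are exact 95% intervals of counting error. The 84-base form lies at 27.3% and 38.5% in control and at 78.9% and 75.4% in KCl, and the other 2 forms lie lower in KCl than in control.

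Cadm1 has a further cassette exon of 54 bases downstream of that pair (chromosome 9, 47836717 to 47836770). Its inclusion read share was 52.6% and 73.3% in control and 31.3% and 37.5% in KCl. Both KCl libraries were lower than both controls, but they rest on 16 and 32 reads. The log2 odds difference of -1.71 (SE 0.85) did not pass edgeR's test (adjusted p 0.551), and with 1 library left out it ran from -2.34 without control replicate 1 to -1.04 without control replicate 2. A second mutually exclusive pair of Cadm1, with exons of 147 and 138 bases at 47787971 and beyond, was listed in the table of replicate 2 alone. Its inclusion share was 61.9% in control and 60.3% in KCl, and here the rows do not show which exon counts as inclusion.

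Of the 8 member events tested for splicing, edgeR called 0, against a background of 0% of all events called. DESeq2 also called 0 of the 8. At an unadjusted p under 0.05 there was 1 of 8, the Cadm1 pair, against 9.21% of all events. The groups did not overlap in 5 of 8, against 40.7% of all events. With 8 events, 1 low p-value is near the background share, and it lay in the Cadm1 pair.

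Ncam1 was covered most deeply. Its 801-base exon on chromosome 9 (49506853 to 49507653) has the length of the exon for the cytoplasmic insert of the largest NCAM isoform. In replicate 1 the exon had 1356 inclusion and 441 skipping reads in control and 399 and 179 in KCl, which are shares of 75.5% and 69.0%. In replicate 2 it had 4969 and 861 reads in control and 1669 and 465 in KCl, which are 85.2% and 78.2%. The share was lower in the KCl library of each replicate number, but the groups overlapped, with means of 80.3% ± 6.91 (SD, n = 2) in control and 73.6% ± 6.49 (SD, n = 2) in KCl. The log2 odds difference was -0.57 (SE 0.67; edgeR adjusted p 0.918). Leaving out a control library gave -1.02 (replicate 1) or -0.12 (replicate 2), and leaving out a KCl library -0.23 (replicate 1) or -0.92 (replicate 2). The authors' deposited table gives it an FDR of 1 in replicate 1 and of 0.00806 in replicate 2.

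The 30-base exon of Ncam1 (49550540 to 49550569) has the length of the variable alternatively spliced exon, VASE, which lies in the fourth immunoglobulin domain and reduces the growth-promoting action of NCAM on neurites. It was a minor form in every library, with shares of 13.8% and 6.59% in control and of 17.0% and 7.90% in KCl. Libraries of replicate 1 were higher than those of replicate 2 in both groups, and the log2 odds difference of 0.30 (SE 0.72; edgeR adjusted p 0.980) was under its error. An alternative 3′ splice site of Ncam1 at 49520035 to 49520215 had inclusion shares of 24.9% and 26.2% in control and of 23.2% and 23.8% in KCl (log2 odds difference -0.16, SE 0.63, edgeR adjusted p 0.988). A 117-base exon (49508589 to 49508705) was included in 99.8% to 100% of reads and had too few skipping reads to be tested.

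Cadm2 had 1 event, a 120-base exon on chromosome 16 (66731385 to 66731504) with shares of 8.16% and 17.2% in control and of 16.7% and 28.6% in KCl. The groups overlapped, and the log2 odds difference was 0.99 (SE 0.76; edgeR adjusted p 0.802). With a control library left out it was 0.45 (replicate 1) or 1.67 (replicate 2), and with a KCl library left out 1.47 (replicate 1) or 0.47 (replicate 2). For Cadm3 a 102-base exon on chromosome 1 (173349022 to 173349123) stood at 45.6% and 41.6% in control and at 34.5% and 37.4% in KCl. Both KCl libraries were below the controls, by a log2 odds difference of -0.46 (SE 0.62; edgeR adjusted p 0.943). Its 126-base exon (173338020 to 173338145) was included in 99.5% of reads or more in every library. In the 3 Ncam2 exons of replicate 2 and the 2 Cntn1 exons of replicate 1 at most 2 skipping reads were counted per library, and inclusion was between 92.9% and 100%.

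Exon lengths were compared between variable exons and the others. Of the 15 cassette exons of the 6 genes, 7 had a mean inclusion share between 5% and 95%: the 84-, 33- and 54-base exons of Cadm1, the 801- and 30-base exons of Ncam1, the 120-base exon of Cadm2 and the 102-base exon of Cadm3. All 7 had lengths that are multiples of 3, which keeps the reading frame. Among the other 8 exons, 4 had such a length. In the other genes of both tables, lengths were multiples of 3 in 52.2% of 3532 exons with shares between those limits and in 40.9% of 4092 exons outside them. This is a description of 15 exons and was not tested.

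**Figure D2:**
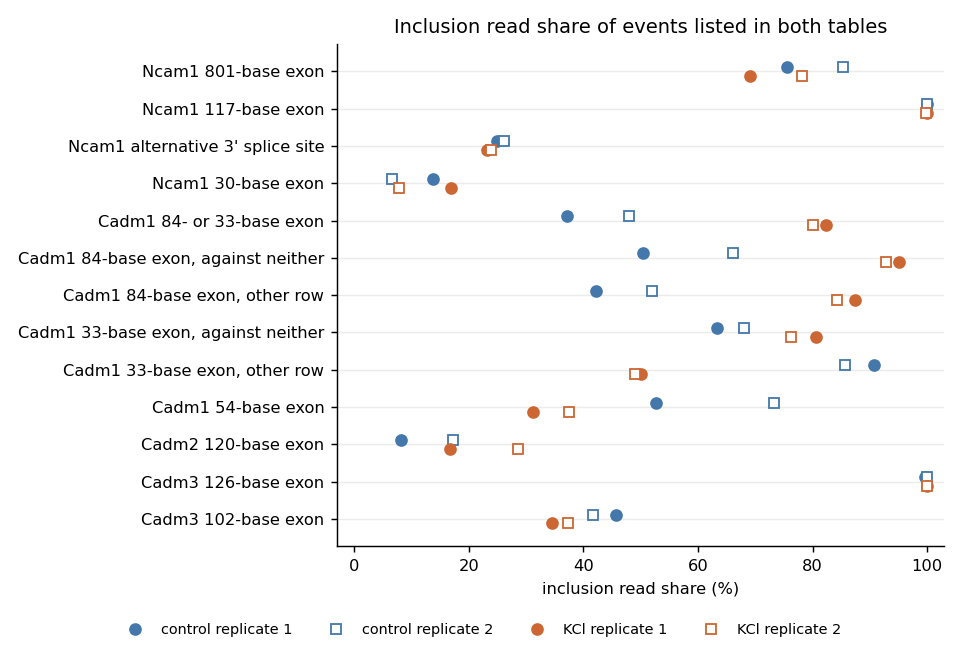
Inclusion read share (x axis, %) of the member events listed in both replicate tables (y axis), 1 point per library, with filled circles for replicate 1 and open squares for replicate 2. The Cadm1 pair lies at 37.2% and 47.9% in control and at 82.3% and 80.1% in KCl, while the points of most other events lie close together or overlap.

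The level of a gene was read from its best-covered event, with both forms summed, as CPM, its read count scaled to a common library size with TMM factors. Ncam1 had 1252 and 3129 CPM in control and 396 and 1208 CPM in KCl. Within each replicate number the KCl library was lower, 3.16-fold and 2.59-fold, and the lower control lay just above the higher KCl library. Its log2 fold change was -1.45 (SE 0.67; edgeR quasi-likelihood, Benjamini-Hochberg adjusted p 0.429). Cadm3 had 734 and 907 CPM in control and 172 and 422 CPM in KCl, and the groups did not overlap. The log2 fold change was -1.46 (SE 0.52; edgeR p 0.0247 before and 0.357 after adjustment). In bulk RNA, fewer cells of a type and less RNA per cell cannot be told apart.

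The events that stand for Cadm1 and Cadm2 lay closer to their controls. The Cadm1 pair of 84 and 33 bases stood at 204 and 202 CPM in control and at 112 and 182 CPM in KCl, which is a log2 change of -0.46 (SE 0.43; edgeR adjusted p 0.764). For Cadm2 the values were 68.3 and 62.2 CPM in control and 73.9 and 51.5 CPM in KCl. Here the KCl libraries lay on either side of the controls, with a log2 fold change of -0.06 (SE 0.43; edgeR adjusted p 0.983). The 54-base exon region of Cadm1 had 36.3 and 42.4 CPM in control and 7.21 and 12.3 CPM in KCl on the scale of event levels, which is a log2 change of -2.00 (SE 0.51; edgeR adjusted p 0.411). The pair of 147 and 138 bases, listed in replicate 2 alone, had 2019 reads in control and 912 in KCl, a control value 1.92-fold (interval 1.77 to 2.08) higher. With all matched events of Cadm1 summed, the log2 change was -0.72 (edgeR adjusted p 0.534). The other events are also given on the scale of event levels, which differs from that of the gene levels above. On it the 126-base exon of Cadm3 had 503 and 596 CPM in control and 114 and 287 CPM in KCl. Its 102-base exon had 337 and 216 CPM in control and 64.0 and 91.5 CPM in KCl (log2 change -1.83, SE 0.46, edgeR p 0.00455, adjusted 0.411). The 801-base exon of Ncam1 had 857 and 2058 CPM in control and 260 and 820 CPM in KCl. The 3′ splice site event of Ncam1 had 522 and 427 CPM in control and 249 and 242 CPM in KCl (log2 change -0.95, SE 0.39, edgeR p 0.0442, adjusted 0.452). Events of 1 gene can therefore differ in level, and the best-covered event need not stand for the whole transcript.

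Of the 4 genes tested, edgeR called 0, as in 0% of all 6114 genes, and DESeq2 called 0 of the 4. At an unadjusted p under 0.05 and lower in KCl there was 1 of 4, against 7.33% of all genes. Groups did not overlap, with KCl lower, in 3 of 4, against 21.2%. The events of 1 gene share its RNA, so the 9 matched events are not independent: edgeR and DESeq2 called 0 of them, against an edgeR background of 0%, while 4 of 9 were lower at an unadjusted p under 0.05 (6.85% of all events) and 7 of 9 were lower without overlap (21.4% of all events). With a replicate block edgeR called 2 of the 4 genes, among 1259 of all 6114, and 7 of the 9 events, among 1359 of all 11814. What a replicate number shares is not in the labels. The counts also change when KCl replicate 2 is left out. Without that library edgeR called 2 of the 4 genes, Ncam1 with a log2 fold change of -2.53 (adjusted p 0.0104) and Cadm3 with -2.32 (adjusted p 0.0294), and 302 genes in all, and it called 2 of the 9 events. Without KCl replicate 1 the log2 fold changes were -0.84 for Ncam1 and -0.94 for Cadm3. Ncam1 was at -0.64 without control replicate 2 and at -1.96 without control replicate 1.

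Ncam2 and Cntn1 could not be tested over 4 libraries and are given as reads of 1 control and 1 KCl library, with no replicate check. Ncam2 had 309, 443 and 98 control reads on exons of 151, 205 and 120 bases (chromosome 16, 81490244 to 81490394, 81615703 to 81615907 and 81621341 to 81621460). In KCl replicate 2 the same exons had 137, 142 and 43 reads. In RPM, reads scaled to the event reads of the library, the control was higher 1.95-fold (interval 1.59 to 2.41), 2.70-fold (2.23 to 3.29) and 1.98-fold (1.37 to 2.90). The 182-base exon of Cntn1 on chromosome 15 (92261473 to 92261654) had 814 reads in control replicate 1 and 243 in KCl replicate 1, and its 33-base exon (92220447 to 92220479) had 76 and 28. These are control values 3.42-fold (2.96 to 3.97) and 2.77-fold (1.78 to 4.44) higher. All 5 exons of both genes thus had fewer reads in the KCl library.

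Rows of all 6 genes can be set against the tables they stand in. With a mean of at least 50 reads, 9 of 13 member rows of replicate 1 were at least 2-fold lower in KCl, against 14.7% of 10959 rows. In replicate 2 this held for 6 of 17, against 6.21% of 14141 rows. Rows with any lower value in KCl were 12 of 13, against 47.8% of all rows, and 16 of 17, against 45%. The exception in replicate 1 was Cadm2, at 27.5 RPM in control and 29.6 in KCl, and in replicate 2 it was an 84-base row of Cadm1, at 50.5 and 59.4. Rows of 1 gene overlap in their reads and were chosen by gene, so these shares are descriptions.

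**Figure D3:**
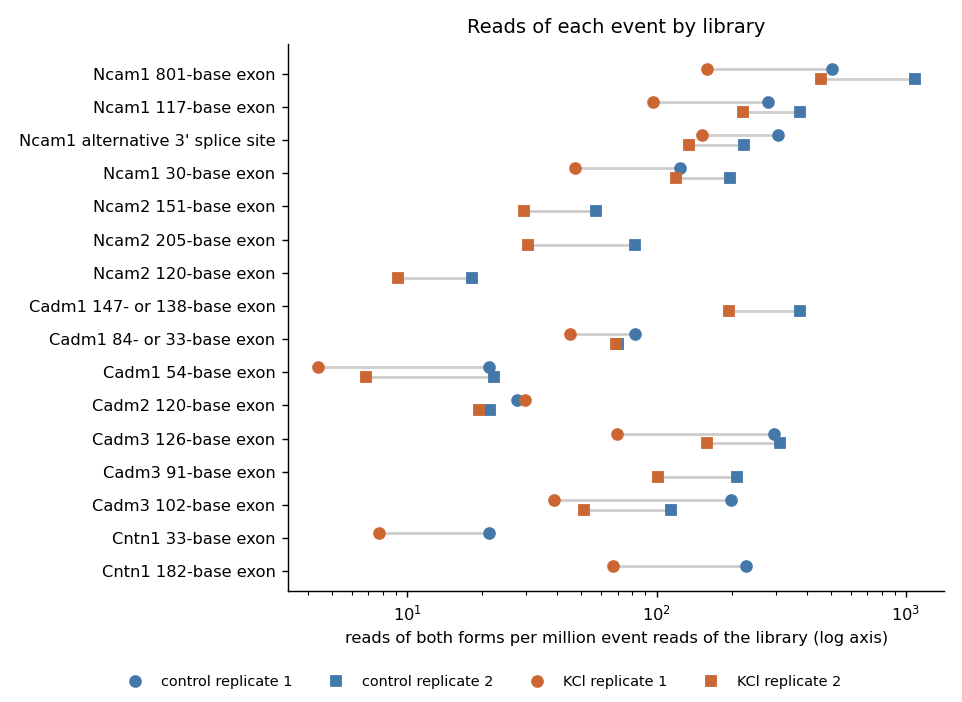
RPM with both forms summed (x axis, log scale) for each member event with coordinates of its own (y axis); blue is control and orange is KCl, circles are replicate 1, squares are replicate 2, and grey lines join the libraries of a replicate number. Nearly all orange points lie left of their blue partners, with Cadm2 in replicate 1 as the exception at 27.5 in control and 29.6 in KCl.

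Markers of cell types also differed between the groups. Neuronal markers (6 of 10 measured) were lower in KCl in 6 of 6, with a median log2 fold change of -2.03, and their summed level was 6852 and 6915 CPM in control and 550 and 2327 CPM in KCl. Without the most abundant gene, Stmn2, it was 1562 and 2368 CPM in control and 211 and 866 CPM in KCl. Among them Snap25, a synaptic vesicle fusion protein, had 585 and 536 CPM in control and 47.2 and 188 CPM in KCl. Of all 6114 genes, 3210 were higher in KCl and 1349 were higher without overlap. Astrocyte markers (7 of 10 measured) were higher in 7 of 7, with a median log2 fold change of 1.16 and no overlap in 5 of 7. Their sum was 12697 to 17229 CPM in control and 24179 to 48263 CPM in KCl, most of it from 1 gene, and without that gene 3430 to 3726 CPM and 5568 to 5802 CPM. The groups overlapped in Aldoc and Slc1a2, with log2 values of 0.29 and 0.04. Oligodendrocyte lineage markers (6 of 12 measured) were higher in 6 of 6, at 322 to 342 CPM in control and 1099 to 2002 CPM in KCl. Without Sox10 the sum was 128 to 155 CPM and 699 to 972 CPM. Mesenchymal and vascular markers (3 of 7 measured) went from 431 to 517 CPM in control to 2240 to 2902 CPM in KCl. Most of that was Tagln, and without it the sum was 26.5 to 45.1 CPM and 112 to 152 CPM. Cldn5 and Pecam1 were not measured. Progenitor markers (2 of 6 measured) went from 132 to 192 CPM to 411 to 459 CPM, and without Nes from 20.2 to 29.0 CPM to 52.0 to 52.1 CPM. None of 7 microglial markers had a matched event. KCl replicate 1, where Ncam1, Cadm1 and Cadm3 lay lowest, also had the lowest neuronal marker sum, but Cadm2 was highest there, at 73.9 CPM. Between the controls Ncam1 differed, at 1252 and 3129 CPM. Their neuronal sums were 6852 and 6915 CPM with Stmn2 and 1562 and 2368 CPM without it. The part of these shifts in the levels and in the exon shares of the 6 genes was not tested.

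**Figure D4:**
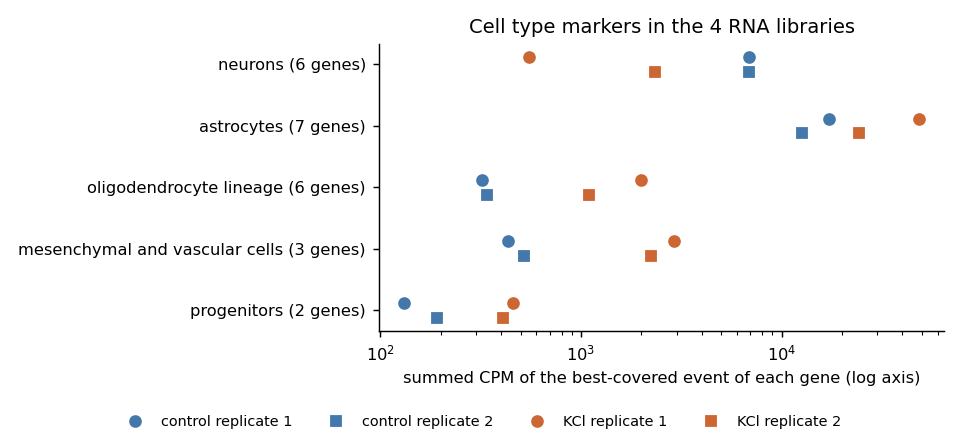
Summed CPM of the measured marker genes of each cell type (x axis, log scale) by list (y axis), 1 point per library, with blue for control, orange for KCl, circles for replicate 1 and squares for replicate 2. Neuronal markers lie lower in KCl, at 550 and 2327 CPM, and the other lists lie higher.

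Other genes of these adhesion systems were read the same way, beside a median of 0.04 over all 6114 genes (2904 lower, 3210 higher). edgeR called 0 genes in each list, and the counts below are of genes with an unadjusted p under 0.05 or of signs. Of 16 related adhesion genes 10 were measured, 8 lower and 2 higher in KCl, with a median log2 fold change of -1.09. Those with a low unadjusted p were Chl1 and L1cam, axonal adhesion molecules of the L1 family, at -2.47 and -2.39, and Negr1 and Nptn at -1.82 and -1.23. All 6 neurexin and neuroligin genes, the partners of a parallel trans-synaptic adhesion system, were lower, with a median of -1.06, and Nlgn1 (-1.29) and Nrxn2 (-0.95) had a low unadjusted p.

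Enzymes, ligands and co-receptors around NCAM and contactin showed no common direction: of 14 genes 8 were measured, 3 lower and 5 higher, with a median of 0.25. St8sia4, which adds polysialic acid to NCAM, was lower, at 61.3 and 46.7 CPM in control and 24.0 and 24.3 CPM in KCl, which is a log2 change of -1.16 (SE 0.45; edgeR adjusted p 0.381). St8sia2, the other such enzyme of the list, was not lower. It had 52.3 and 82.1 CPM in control and 76.7 and 79.3 CPM in KCl, a log2 change of 0.21 (SE 0.44, edgeR adjusted p 0.917). Fgfr1, a receptor that NCAM activates, was higher, at 248 and 261 CPM in control and 660 and 485 CPM in KCl, which is a log2 change of 1.17 (SE 0.39; edgeR adjusted p 0.352). Of 15 cytoplasmic partners 11 were measured, 6 lower and 5 higher, with a median of -0.55. Gap43, a growth cone protein linked to NCAM signalling, and Epb41l1, a membrane skeleton adaptor, were lower by log2 values of -2.40 and -1.94, and the scaffold gene Mpp6 was higher by 1.05.

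Exons of related genes also differed at an unadjusted p under 0.05, none passing edgeR's adjusted threshold. There were 8 of 26 tested events in the related adhesion genes, 6 of 30 in the cytoplasmic partners, 6 of 25 in neurexins and neuroligins and 0 of 15 in the polysialylation list, against 9.21% of all events. The 3 with the smallest p are given. A 237-base exon of Nfasc, an axonal adhesion molecule, was included in 74.1% and 65.2% of reads in control and in 9.80% and 28.2% in KCl (edgeR adjusted p 0.115). A 30-base exon of Nrcam, its relative, stood at 27.0% and 15.3% in control and at 0% and 1.76% in KCl (edgeR adjusted p 0.125). In Epb41l1 a 36-base exon stood at 82.1% and 87.8% in control and at 13.0% and 53.7% in KCl (edgeR adjusted p 0.115). Neither group overlapped the other in these 3 exons, but they were picked by their p, and 40.7% of all events had no overlap.

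The H3K9me3 signal over the 6 genes in hippocampus lay near or under the median of the genome, at percentiles of 17.6 to 62.1 among gene bodies. No input library is among the samples, and values near that median do not show that a gene carries the mark. Values are fragment densities of the gene body relative to the median 10 kb window of the same library, given first for the home cage and then for the first and the second enriched library. Ncam1 (chromosome 9, 49502129 to 49799393) had 0.844, 0.782 and 0.839 times that median, from 552, 1092 and 773 fragments. Its paralogue Ncam2 (chromosome 16, 81200697 to 81624290) had 0.948, 0.978 and 0.937. Both NCAM genes lay under the median window in all 3 libraries, as did Cadm1, Cadm2 and Cntn1. The interval of Ncam2 reached past that median in the home cage (0.886 to 1.01) and in the first enriched library (0.935 to 1.02). Cadm1 stood at 0.851, 0.867 and 0.888, Cadm2 at 0.766, 0.832 and 0.811, and Cntn1 at 0.917, 0.888 and 0.901. The short Cadm3 gene, of 36.2 kb, varied most, with 0.915, 0.804 and 1.11 from 73, 137 and 125 fragments. Over all 24369 gene bodies the medians were 1.01, 0.994 and 1.02. A group of 371 zinc finger genes, known targets of the mark, had medians of 1.17, 1.14 and 1.17. For clustered protocadherin genes of the alpha and gamma groups the medians were 2.01, 2.10 and 1.78.

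No difference between enriched and home cage was detectable in the 6 genes. The log2 differences were -0.05 (SE 0.15) for Ncam1, 0.03 (SE 0.13) for Ncam2, 0.06 (SE 0.15) for Cadm1, 0.12 (SE 0.11) for Cadm2, 0.03 (SE 0.27) for Cadm3 and -0.02 (SE 0.15) for Cntn1. limma with voom weights and Benjamini-Hochberg adjustment called 0 of 6, as in 0% of all gene bodies, and 0 of 6 had an unadjusted p under 0.05, against 1.77%. The single home-cage library was assumed to vary like the enriched ones. The enriched libraries alone differed from each other with an SD of 0.32 on the log2 scale over all gene bodies, as much as they differed from the home cage (0.29 and 0.36).

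Along the genes the windows stayed near the median. In Ncam1 the 10 kb windows ran from 0.364 through a median of 0.841 to 1.27 in the home cage, and from 0.511 and 0.484 to 1.19 and 1.16 in the enriched libraries. In Cadm2, the longest gene at 965.5 kb, they ran from 0.364 to 1.77 in the home cage. Those 2 windows held 8 and 39 fragments, where the median window of that library held 22. Counting error was not separated from these ranges. None of 227 windows in the 6 genes reached 2 times the median in all 3 libraries, where 1.50% of 258073 windows did. The highest window shared by the libraries lay in Ncam2, 34.3 kb from its start, at 1.55, 1.66 and 1.74.

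**Figure D5:**
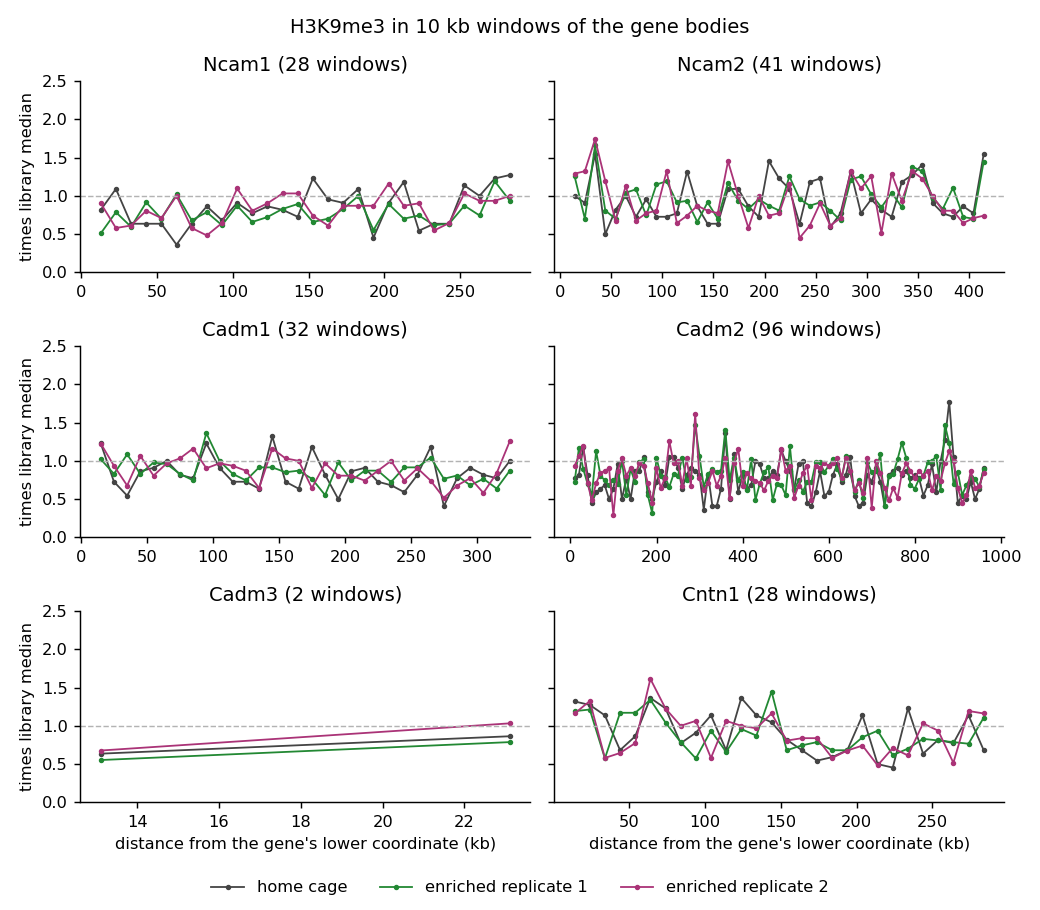
H3K9me3 in 10 kb windows of each gene body, as times the library's median window (y axis), against the distance of the window centre from the gene's lower coordinate (x axis, kb); lines are the 3 libraries and the dashed line marks 1. The lines stay under 2 in all 6 genes, and those of the home cage and enriched libraries cross in all but Cadm3, which has 2 windows.

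Start sites of 4 of the 6 genes are in the RefSeq promoter table of GRCm38.p6, with 6 entries, 3 of them for Cntn1; Ncam1 and Cadm1 have no entry. In the 5 kb around a start, Ncam2 had 1.09, 1.11 and 1.61 times the median, in the same order of libraries, and Cadm3 had 1.00, 1.06 and 1.68. The intervals of the enriched replicates overlapped in both, and counts were 11 to 26 fragments. Cadm2 had 1.18, 1.36 and 1.29, and the starts of Cntn1 had 0.710 to 1.02. Medians over 32851 starts were 0.909, 0.936 and 0.968.

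The 250 bases before the start are shown for Ncam2, Cadm3 and the first start of Cntn1, whose reads were lower in the KCl libraries, because they differ widely in CG pairs, the targets of DNA methylation. Each runs 5′ to 3′ on the strand of its gene, CG pairs are in capitals, and the sequences are from RefSeq, GRCm38.p6.
Ncam2, chr16:81200447-81200696, plus strand: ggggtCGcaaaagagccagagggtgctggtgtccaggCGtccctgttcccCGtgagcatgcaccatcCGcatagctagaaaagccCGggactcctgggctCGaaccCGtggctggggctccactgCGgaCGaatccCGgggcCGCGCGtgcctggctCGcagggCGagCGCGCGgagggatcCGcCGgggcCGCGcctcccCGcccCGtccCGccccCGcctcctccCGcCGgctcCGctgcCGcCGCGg
Cadm3, chr1:173367696-173367945, minus strand: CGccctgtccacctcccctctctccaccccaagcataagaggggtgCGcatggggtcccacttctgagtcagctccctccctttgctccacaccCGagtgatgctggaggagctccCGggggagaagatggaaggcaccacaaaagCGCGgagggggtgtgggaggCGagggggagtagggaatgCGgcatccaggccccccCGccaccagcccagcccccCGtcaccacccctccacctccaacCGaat
Cntn1, chr15:92050915-92051164, plus strand: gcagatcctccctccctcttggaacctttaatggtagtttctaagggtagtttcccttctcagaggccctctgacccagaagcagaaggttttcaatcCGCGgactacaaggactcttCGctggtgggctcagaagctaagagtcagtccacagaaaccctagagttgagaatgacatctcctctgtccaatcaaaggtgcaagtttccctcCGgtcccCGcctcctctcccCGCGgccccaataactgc
Ncam2 has 32 CG pairs in this window, more than 95.4% of the 32851 promoters of the table, Cadm3 has 11 and Cntn1 has 7, beside a median of 6. Cadm2, whose level lay near its controls, has 10, and the other 2 Cntn1 starts have 3 each. The letters TGACG or CGTCA, a core that the depolarization-activated factor CREB can bind, were searched on both strands after the values had been seen. CGTCA occurs 1 time in the window of Cadm3 and 1 time in that of the second Cntn1 start, and neither spelling occurs in the other 4 windows. Either spelling is held by 17.8% of all promoter windows.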

How the data were processed

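RNA was measured in 2 control and 2 KCl libraries and H3K9me3 in 3 ChIP libraries, grouped by the sample titles. The authors deposited whole-number counts of inclusion and skipping reads per event, with a p-value and an FDR comparing KCl and control of 1 replicate number, per the file headers. ChIP values are a coverage signal that the authors deposited; all are whole multiples of 1 step (tolerance 0.01), from which fragments were recovered. The submitters' processing notes name CASAVA 1.7, BWA 0.7.12, MACS2, TopHat2 and mm10. For the event counter and its annotation, nothing is given in the sources used here. Another 2 columns, KCl counts in a control file, were not used.

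Events were matched by type, gene and coordinates, leaving out rows that share them. Splicing was tested on the counts of both forms (edgeR 4.0.16, quasi-likelihood, a term per library; a mean of 1 read of each form), levels on both forms summed with TMM scaling. Fragments were counted by midpoint over gene bodies of GRCm38.p6, at most 2 per start, with a mean of 20, scaled on the lower 75% of 10 kb windows, and tested with limma 3.58.1. DESeq2 1.42.0, other filters and scalings, and leaving out each library were alternatives. P-values were adjusted over all features (Benjamini-Hochberg, threshold 0.05). Fits were tested on simulated data. With a spread beyond counting error near that of the data (dispersion 0.09), the splicing fit recovered 31.6% of log2 odds differences of 3. The gene level fit recovered 40.5% of log2 differences of 2 (dispersion 0.15). The H3K9me3 fit recovered 63.0% and 19.6% of log2 differences of 1 (dispersions 0.005 and 0.02). Differences of such sizes can therefore go uncalled. Versions were matplotlib 3.10.9, scipy 1.17.1, pandas 2.3.3, numpy 2.4.6, Python 3.11.15 and R 4.3.3.

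All 6 genes are named. Of their events, those best covered, with an unadjusted edgeR p under 0.05 or with an authors' FDR under 0.05 are given with their values, and list genes with an unadjusted p under 0.05 are named. The 3 exons of list genes were picked after their values were seen. The members and lists were chosen with earlier results of these data known. A planned motif search in introns needs a genome and was not run. Depth limits exons with few reads, as in the 54-base exon of Cadm1.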

Additional observations from a re-analysis of the deposited data

How the results depend on the processing

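Over 259 alternatives of single genes and events, 230 kept direction and side of the threshold, 17 passed it only there and 12 changed sign, 3 of them H3K9me3 values with no test. For splicing, DESeq2, the filters and each left-out library called 0 member events. Identifying the Cadm1 rows of equal coordinates by their reads, an alternative added after the data were seen, also called 0, of 12. Over these settings the Cadm1 pair had adjusted p-values of 0.137 to 0.856, and without 1 library its log2 odds difference ran from 2.23 to 2.86. With all genes, DESeq2 called 74 event levels and 55 gene levels. Leaving out 1 library gave 0 to 434 event levels and 0 to 302 gene levels, and among the members 0 to 2 of 9 events and 0 to 2 of 4 genes; the cause was not tested. With total fragments as the scale, limma called 1 gene body.

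The replicate numbers pair the libraries by number alone. Deviations from the group means correlated at 0.623 over 6114 gene levels and at 0.0573 over 10088 log odds, each from 2 pairs. With a replicate block edgeR called 1 of 8 member events for splicing, the Cadm1 pair (adjusted p 0.00108), and 168 events in all; with the Cadm1 rows identified as well it called 3 of 12 and 171 in all. Under the block 7 of 9 event levels and 2 of 4 gene levels of the members were called, Ncam1 (adjusted p 0.00129) and Cadm3 (adjusted p 0.00215), among 1359 events and 1259 genes.

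None of the values that changed sign was past the threshold. The H3K9me3 difference of Cntn1 was 0.025 with total fragments, that of Ncam1 0.0032 after thinning and that of Cadm3 -0.0098 with 5 kb before the start added. With 1 enriched library left out, Cadm3 ran from -0.19 without replicate 2 to 0.31 without replicate 1, Ncam1 from -0.11 to 0.02 and Cntn1 from -0.04 to 0.003. The Cadm2 event level was 0.06 without control replicate 1 and 0.15 without KCl replicate 2, over a range of -0.33 to 0.15 with each library left out, and its gene level was 0.0095 and 0.11, over a range of -0.33 to 0.11. The Ncam1 30-base exon stood at -0.30 without KCl replicate 1 or without control replicate 2, over a range of -0.30 to 0.95.

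Precision is limited by 2 libraries a group and, for the 54-base exon of Cadm1, by 16 and 32 reads in KCl. The tables used here give no flanking exons or effective lengths, and rows with equal coordinates were told apart for Cadm1 alone. The H3K9me3 comparison rests on 1 home-cage library.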
